A study of Mus musculus with 10 samples.

Results

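The 9 transcription factor genes described here set and maintain the identity of the small intestinal epithelium: Hnf4a, Hnf4g, Cdx1, Cdx2, Gata4, Gata6, Klf4, Klf5 and Creb3l3. They were chosen by name, and all 9 were found among the 19505 genes measured. Their RNA levels were read on 10 single-colour arrays in organoids of small intestine from BALB/c mice. Organoids of this kind are epithelial cultures that form crypt-like and villus-like domains. In 5 cultures, organoids received 5 mg/ml pegtarazimod together with 20 ng/ml recombinant murine TNF for 48 h. In the other 5 cultures they received 2.625 mM PEG as vehicle together with the same TNF for the same time. The amounts of PEG in the 2 groups are given in different units and cannot be compared. TNF was thus shared by both groups, and cultures without it were not analysed here. Pegtarazimod, a peptide joined to PEG, is known to block the classical complement pathway and myeloperoxidase. The series design calls the 5 samples of a group biological replicates. The labels do not state what differed between them, so the p-values measure the spread between these samples.

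As background, HNF4A and HNF4G are related nuclear receptor family factors that bind the same DNA element and together drive enterocyte genes of the villus. CDX1 and CDX2 are homeobox factors of the caudal family, and CDX2 keeps the epithelium intestinal rather than gastric in type. GATA4 sets the jejunal type of absorptive cell against the ileal one, while GATA6 acts along the whole small intestine. The related factors KLF5 and KLF4 are known from opposite ends of the crypt and villus axis, KLF5 from proliferating crypt cells and KLF4 from differentiated villus and goblet cells. CREB3L3 is held in the membrane of the endoplasmic reticulum until it is cleaved, and in liver and small intestine it drives genes of lipoprotein and fatty acid metabolism.

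Of the 9 genes, Klf5 rose with pegtarazimod, by 0.46 ± 0.12 on the log2 scale (SE, n = 5 arrays per group), or 1.37-fold, a call that was lost on leaving out any of 6 of the 10 arrays. In whole cultures, a change in the number of cells of a type and a change in RNA per cell cannot be told apart. Creb3l3 and Hnf4g had larger differences, of 1.07 ± 0.32 and 0.67 ± 0.20, but did not pass the test over the 10 arrays. Hnf4a, Cdx1, Cdx2, Gata4, Gata6 and Klf4 differed by -0.12 to 0.22 and did not pass either. In the limma fit across all genes, with Benjamini-Hochberg adjustment over 19505 genes and a threshold of 0.05, 1 of the 9 genes was thus called, a higher one, against 4.89% of all genes called in either direction and 2.50% called higher. At an unadjusted p below 0.05 the count was 4 of 9, against 19.0% of all genes. The difference was positive for 8 of the 9 genes and for 50.7% of all genes, with a median of 0.21 over the 9 and 0.003 over all genes.

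Array profiles were close to each other, with correlations over all genes of 0.983 to 0.992 within pegtarazimod, 0.989 to 0.994 within vehicle and 0.973 to 0.991 between groups. In both groups the first 2 replicates were set off from the other 3. Once group means were removed, the leading principal component carried 33.4% of the remaining variance. On it, pegtarazimod 1 and 2 lay at or below -19.0 and the other pegtarazimod arrays at or above 11.4, and vehicle 1 and 2 lay at or below -12.0 and the other vehicle arrays at or above 8.20. The labels name no batch. All 9 genes had a higher mean in replicates 1 and 2 than in replicates 3 to 5 in both groups, for Cdx1 by only 0.06 in vehicle and 0.02 in pegtarazimod. The share of all genes for which this held is not given, so it cannot be called particular to the 9. Because the arrays split in this way, the differences are also given within each subset and with the subsets as a block in the fit. With that block, 3 of the 9 genes were called, all higher (Hnf4g, Klf5 and Creb3l3), against 9.33% of all genes called and 4.50% called higher.

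**Figure D1:**
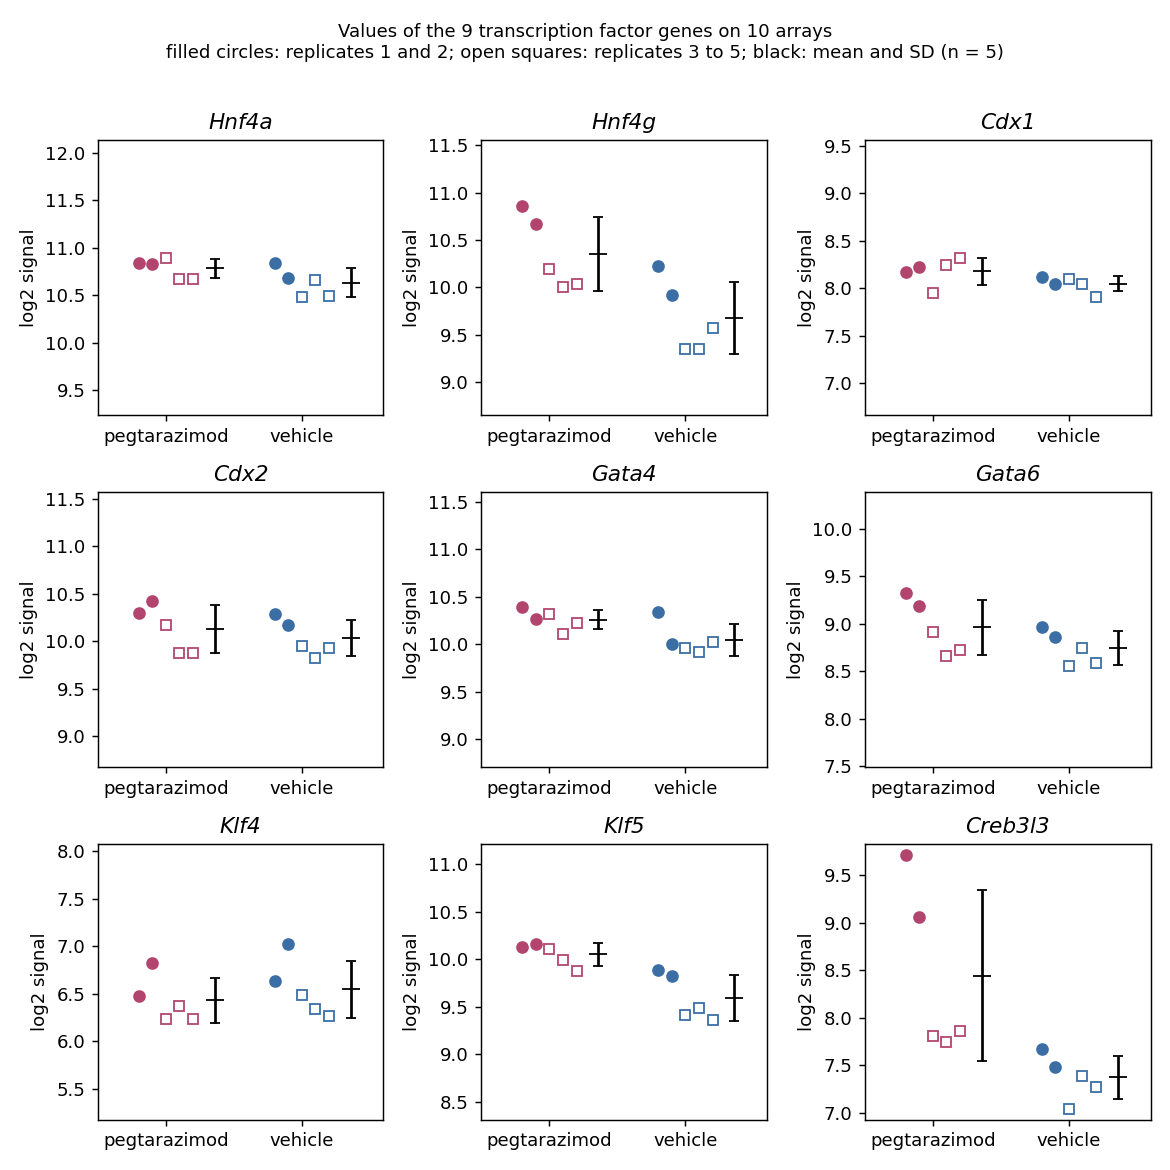
Log2 signal (vertical axis, each panel spanning the same number of log2 units) of each of the 9 genes on the 5 pegtarazimod arrays (left) and the 5 vehicle arrays (right), with replicates 1 and 2 as filled circles, replicates 3 to 5 as open squares, and the mean with SD in black. The groups are fully apart for Creb3l3, at 7.74 and above against 7.67 and below, while vehicle 1 lies above 1 pegtarazimod array for Klf5 and above 3 for Hnf4g.

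Of the HNF4 pair, Hnf4g had the larger difference. The log2 signal of Hnf4g was 10.86, 10.67, 10.19, 10.004 and 10.04 on pegtarazimod arrays 1 to 5, against 10.23, 9.92, 9.35, 9.35 and 9.57 on vehicle arrays 1 to 5. Vehicle 1 lay above the 3 lowest pegtarazimod arrays, so the groups overlapped, and in both groups replicates 1 and 2 were the highest. The means were 10.35 ± 0.39 and 9.68 ± 0.38 (SD), a 1.59-fold difference with a 95% confidence interval of 0.24 to 1.09 on the log2 scale (adjusted p = 0.0724). The difference was 0.69 within replicates 1 and 2 (adjusted p = 0.0158) and 0.65 within replicates 3 to 5 (adjusted p = 0.0103), each at a spread pooled over the 10 arrays, and with the subsets as a block the adjusted p was 4.03e-04. Hnf4g was thus nearly the same amount higher in both subsets, while the subsets themselves lay 0.69 apart in pegtarazimod and 0.65 apart in vehicle. Hnf4g passed without vehicle 1 (0.80, adjusted p = 0.0296) and without pegtarazimod 4 (0.76, 0.0473).

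The log2 signal of Hnf4a was 10.84, 10.83, 10.89, 10.67 and 10.67 with pegtarazimod, against 10.84, 10.68, 10.48, 10.66 and 10.49 with vehicle. Its groups overlapped, and the difference of 0.15 had a confidence interval of -0.05 to 0.35 (adjusted p = 0.447). It was 0.08 within replicates 1 and 2 and 0.20 within replicates 3 to 5, and passed in neither. The array holds a single probe set for Hnf4a, so transcripts from its alternative promoters were not separated.

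RefSeq promoter windows (GRCm38.p6, 250 bases before to 50 after a gene's start) were at hand for 4 of the 9 genes, Hnf4a, Cdx2, Klf4 and Creb3l3. They were searched on both strands for simplified motifs of the factors themselves: CAAAGTNCA for HNF4, TTTATNG for CDX, AGATAA for GATA, GGGNGTGG for KLF and TGACGTG for CREB3L3. Of 32817 windows, these letters occurred in 1.41%, 10.9%, 11.2%, 17.6% and 2.01%, in the order given. The Creb3l3 window is shown because Creb3l3 had the largest difference, and the Hnf4a window because it held the same motif, the GATA letters. Capitals mark matches.
Hnf4a, chr2:163506607-163506906, plus strand: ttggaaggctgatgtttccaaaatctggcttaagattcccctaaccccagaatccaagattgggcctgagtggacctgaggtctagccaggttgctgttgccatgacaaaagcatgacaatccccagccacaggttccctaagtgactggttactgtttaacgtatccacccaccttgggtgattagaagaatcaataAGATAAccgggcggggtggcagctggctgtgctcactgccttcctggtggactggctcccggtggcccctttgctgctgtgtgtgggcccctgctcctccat
Creb3l3, chr10:81092542-81092841, minus strand: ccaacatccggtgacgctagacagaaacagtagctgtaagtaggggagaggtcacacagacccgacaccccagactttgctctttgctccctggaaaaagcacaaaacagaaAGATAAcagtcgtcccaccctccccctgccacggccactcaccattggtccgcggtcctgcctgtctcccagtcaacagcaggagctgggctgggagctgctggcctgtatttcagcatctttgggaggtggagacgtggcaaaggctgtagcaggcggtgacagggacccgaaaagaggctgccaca
In the Hnf4a window the GATA letters lay at positions -52 to -47 from the start. In the Creb3l3 window the GATA letters lay at positions -138 to -133. The windows of the other Hnf4a start, the other Creb3l3 start and Klf4 held none of the 5 motifs, and that of Cdx2 held the KLF letters. A match is a description of the letters and not evidence of binding in these organoids.

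Creb3l3 had the largest difference of the 9 genes and was the only one of them whose groups did not overlap, against 6.71% of all genes, 3.35% being higher. Its log2 signal was 9.71, 9.06, 7.81, 7.74 and 7.86 with pegtarazimod, against 7.67, 7.48, 7.04, 7.38 and 7.27 with vehicle. Pegtarazimod 1 and 2 stood far above the other pegtarazimod arrays, which lay close to the vehicle range. The means were 8.44 ± 0.90 and 7.37 ± 0.23 (SD), a 2.10-fold difference with a confidence interval of 0.38 to 1.76 on the log2 scale (adjusted p = 0.0765). Within replicates 1 and 2 Creb3l3 rose by 1.81 ± 0.19 (SE, adjusted p = 1.92e-04), and within replicates 3 to 5 it differed by 0.57 ± 0.16 (adjusted p = 0.0691). The differences of the subsets were 1.24 apart, with an unadjusted limma p of 2.43e-04 and an adjusted p of 0.169, so a dependence of the change on the subset was not called. No member was called in that test, which called 0.0256% of all genes, and 1 member, Creb3l3, had an unadjusted p below 0.05, against 7.65% of all genes. With the subsets as a block the adjusted p of Creb3l3 was 0.00319, and it also passed without pegtarazimod 4 (1.24, adjusted p = 0.0396).

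Neither caudal factor passed. Cdx2 had log2 signals of 10.30, 10.42, 10.17, 9.87 and 9.87 with pegtarazimod, against 10.29, 10.17, 9.95, 9.82 and 9.93 with vehicle. The ranges nearly coincided, and the difference of 0.09 had a confidence interval of -0.18 to 0.37 (adjusted p = 0.767). Cdx1 had 8.17, 8.23, 7.95, 8.25 and 8.32 with pegtarazimod, against 8.12, 8.05, 8.10, 8.05 and 7.91 with vehicle. It differed by 0.14 with a confidence interval of -0.06 to 0.33 (adjusted p = 0.478), and 4 of 5 pegtarazimod arrays lay above every vehicle array. A change of Cdx2 or Cdx1 by more than the upper bound of its interval lay outside what these arrays allow at 95% confidence.

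Neither GATA factor passed. Gata4 had log2 signals of 10.39, 10.27, 10.32, 10.11 and 10.23 with pegtarazimod, against 10.34, 10.001, 9.96, 9.92 and 10.03 with vehicle. All pegtarazimod arrays lay above 4 of the vehicle arrays, while vehicle 1 lay among them. The difference was 0.21 with a confidence interval of 0.00 to 0.42 (unadjusted p = 0.0480, adjusted p = 0.259 by limma). Gata6 had 9.32, 9.18, 8.91, 8.66 and 8.72 with pegtarazimod, against 8.96, 8.86, 8.55, 8.74 and 8.58 with vehicle. Its groups overlapped broadly, and it differed by 0.22, with a confidence interval of -0.07 to 0.51 (adjusted p = 0.414). Neither Gata4 nor Gata6 passed in either subset or with the subsets as a block.

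Of the Krüppel-like factors, Klf5 was the member that passed. Its log2 signal was 10.13, 10.16, 10.11, 9.99 and 9.87 with pegtarazimod, against 9.89, 9.82, 9.41, 9.49 and 9.36 with vehicle. Only vehicle 1 reached the pegtarazimod range, by lying above pegtarazimod 5. The means were 10.05 ± 0.12 and 9.59 ± 0.24 (SD), with a confidence interval of 0.21 to 0.71 for the difference (adjusted p = 0.0398). Klf5 differed by 0.29 within replicates 1 and 2 (adjusted p = 0.272) and by 0.57 within replicates 3 to 5 (adjusted p = 0.0103), and the adjusted p with the subsets as a block was 0.00480. The call was kept without pegtarazimod 4 (adjusted p = 0.0462), pegtarazimod 5 (0.0380), vehicle 1 (0.0206) or vehicle 2 (0.0346). It was lost without pegtarazimod 1 (adjusted p = 0.0894), pegtarazimod 2 (0.0998), pegtarazimod 3 (0.0724), vehicle 3 (0.116), vehicle 4 (0.101) or vehicle 5 (0.0971), at differences of 0.40 to 0.44.

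Within replicates 1 and 2 alone, 2 of the 9 genes were called, both higher (Hnf4g and Creb3l3), against 6.30% of all genes called and 2.93% called higher. Within replicates 3 to 5 alone 2 were called, both higher (Hnf4g and Klf5), against 3.34% called and 1.84% called higher. Klf4 was the member with a negative difference. It had log2 signals of 6.48, 6.82, 6.23, 6.37 and 6.24 with pegtarazimod, against 6.63, 7.02, 6.49, 6.34 and 6.27 with vehicle. The groups overlapped almost entirely, and the difference of -0.12 had a confidence interval of -0.44 to 0.20 (adjusted p = 0.737). Its signal lay between the median and the upper quartile of the arrays, whereas 7 of the 9 genes, all but Klf4 and Creb3l3, lay above the upper quartile on every array.

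**Figure D2:**
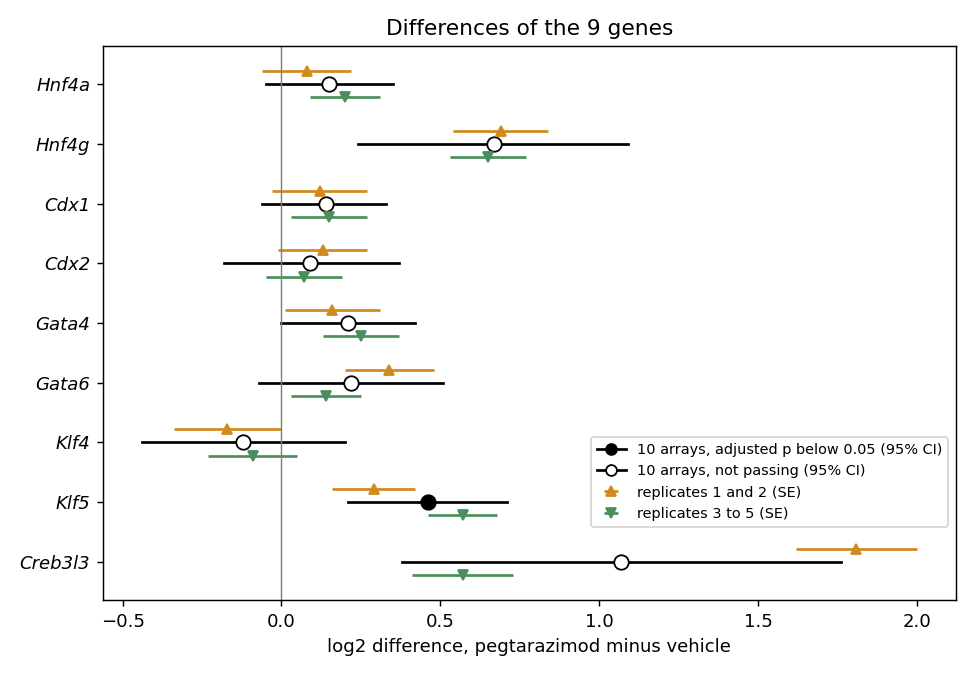
Log2 difference, pegtarazimod minus vehicle (horizontal axis), of the 9 genes over 10 arrays with 95% confidence intervals (circles, filled where the adjusted p is below 0.05), within replicates 1 and 2 and within replicates 3 to 5 (triangles with SE). Klf5 is the filled circle, the triangles of Hnf4g lie close together at 0.69 and 0.65, and those of Creb3l3 lie apart at 1.81 and 0.57.

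Whether the members of a paralog pair changed unequally was tested on the difference of their log2 values within each array, with an exact two-sided permutation test over all splits of the arrays into 2 groups of 5 and adjustment over 4 pairs. The levels of different probe sets cannot be compared, so only their changes were. Whether the 2 probe sets of a pair respond alike to a change in RNA was not tested. Klf4 and Klf5 changed unequally: the difference Klf4 minus Klf5 was 0.58 lower with pegtarazimod, at -3.62 ± 0.19 against -3.04 ± 0.19 with vehicle (SD, n = 5; exact p = 0.00794, the smallest this design can give, adjusted p = 0.0317). All pegtarazimod arrays, at -3.34 or lower, lay below all vehicle arrays, at -3.26 or higher. The adjusted p was 0.0635 when any of vehicle 2, vehicle 3, vehicle 4 or vehicle 5 was left out. The call was kept on leaving out any of the other 6 arrays. The change itself was -0.65 to -0.51 on leaving out single arrays.

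For Hnf4a minus Hnf4g the change was -0.52, with a confidence interval of -0.97 to -0.07, and it did not pass (exact p = 0.0317, adjusted p = 0.0635). It passed with permutation inside the subsets (adjusted p = 0.0333) and without vehicle 1 (-0.60, adjusted p = 0.0159). For Cdx1 minus Cdx2 the change was 0.04 (interval -0.34 to 0.43, exact p = 0.778), and for Gata4 minus Gata6 it was -0.01 (interval -0.27 to 0.25, exact p = 0.889). These intervals hold unequal changes of up to about the size of the Klf5 difference for the CDX pair and smaller ones for the GATA pair.

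**Figure D3:**
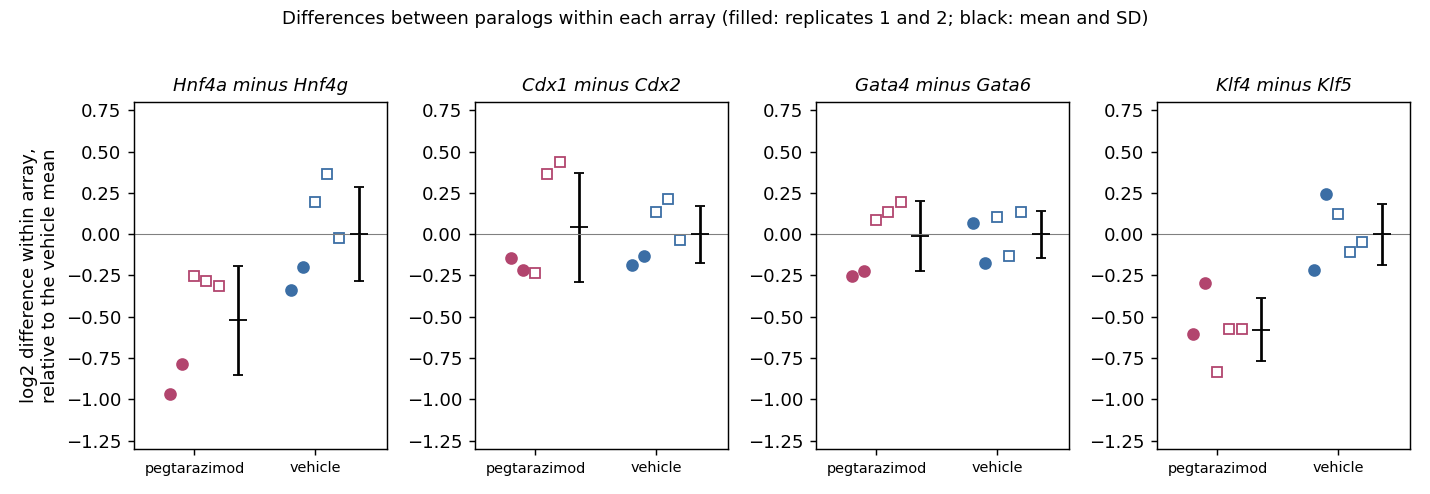
Difference in log2 signal between the members of 4 paralog pairs within each array (vertical axis, relative to the vehicle mean), for 5 pegtarazimod (left) and 5 vehicle arrays (right), with mean and SD in black. For Klf4 minus Klf5 the groups are apart, with means of -3.62 and -3.04 before the vehicle mean is subtracted, and for the CDX and GATA pairs they overlap.

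Paralogs of the 9 genes outside the set differed little. Of 21 measured paralogs in the CDX, GATA, KLF and CREB3 families 1 fell and none rose, against 2.39% of all genes called lower, and their median difference was -0.06. The gene that fell was Klf6, an immediate early member of the KLF family. Klf6 had log2 signals of 7.81, 7.85, 7.79, 7.97 and 7.96 with pegtarazimod, against 8.32, 8.36, 9.01, 8.75 and 8.34 with vehicle. Its groups were fully apart, as were those of 6.71% of all genes in either direction. The difference was -0.68 ± 0.13 (SE, adjusted p = 0.00961 by limma, and 0.0623 by a linear model without moderation). The difference was -0.51 within replicates 1 and 2 (adjusted p = 0.145) and -0.79 within replicates 3 to 5 (adjusted p = 0.0101). Klf10, a TGF-beta-inducible member of the family chosen after its value was seen, differed by -0.56 and did not pass (adjusted p = 0.0540).

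Among 24 measured transcription factors of other families that act in this epithelium, 5 fell and 1 rose. Of all genes, 2.39% were called lower and 2.50% higher. The median difference of the 24 was -0.01. The forkhead factors FOXA1 and FOXA2 open chromatin in gut epithelium. Foxa2 had log2 signals of 6.62, 6.55, 6.62, 6.96 and 6.41 with pegtarazimod, against 7.40, 7.31, 7.45, 7.36 and 7.24 with vehicle, fully apart, and fell by 0.72 ± 0.10 (SE, adjusted p = 0.00181). Foxa1 fell by 0.68 (adjusted p = 0.0321), by 1.03 within replicates 1 and 2 and by 0.44 within replicates 3 to 5, and Foxa3 differed by -0.45 and did not pass (adjusted p = 0.0516, named after its value was seen). The stem cell factor gene Ascl2 fell by 1.80 ± 0.15 and the crypt and Paneth cell factor gene Sox9 by 1.05 ± 0.11, both with fully separate groups. Such separation held for 6.71% of all genes in either direction. The repressor gene Bcl6 fell by 0.55 at an adjusted p of 0.0495. Zfpm1, which encodes the GATA cofactor FOG1, rose by 0.41 ± 0.09 (adjusted p = 0.0241), although it passed in neither subset (0.162 and 0.0616). On leaving out single arrays, the adjusted p of Foxa1 reached 0.0917, that of Zfpm1 0.0729 and that of Bcl6 0.110, while those of Foxa2, Ascl2 and Sox9 stayed at or below 0.00807. The calls were lost for Foxa1 without pegtarazimod 1 or 2 or vehicle 2, 3, 4 or 5, for Zfpm1 without pegtarazimod 1 or vehicle 3, 4 or 5, and for Bcl6 without any array except pegtarazimod 3.

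**Figure D4:**
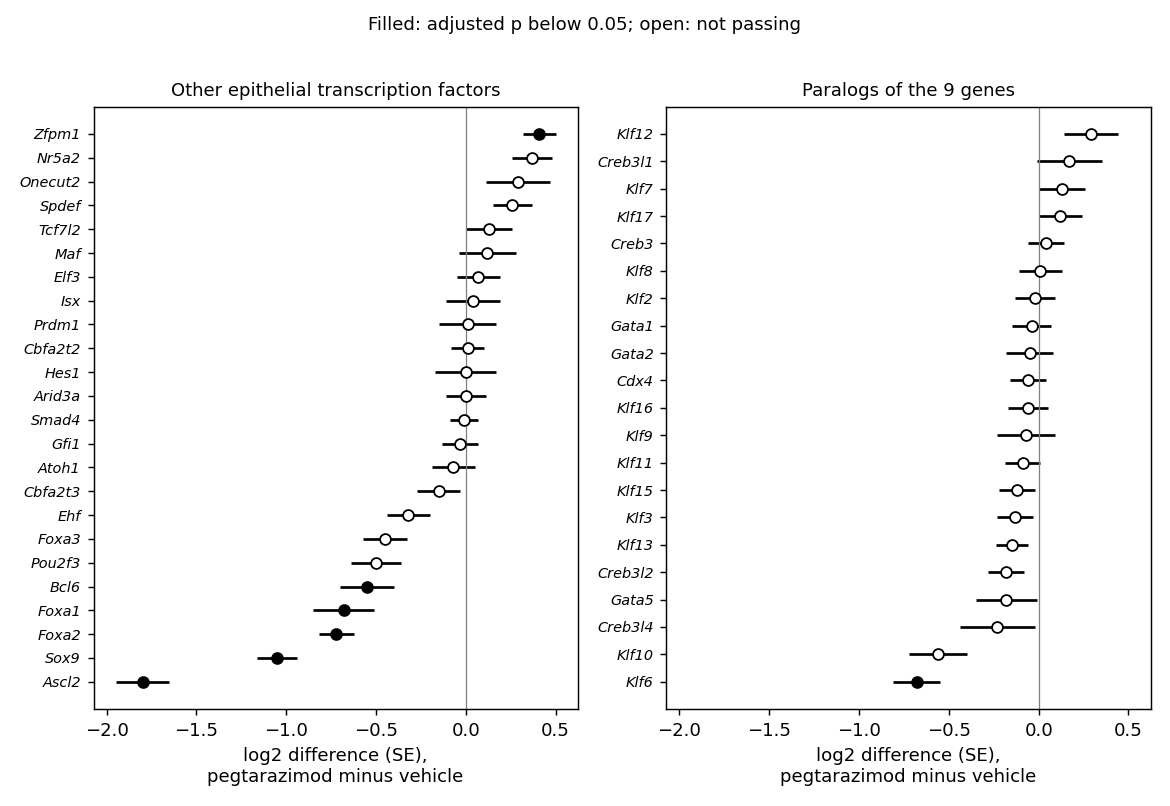
Log2 difference, pegtarazimod minus vehicle, with SE (horizontal axis) of 24 other epithelial transcription factor genes (left) and of 21 paralogs of the 9 genes (right), filled where the adjusted p is below 0.05. Ascl2, Sox9, Foxa2, Foxa1 and Bcl6 are the filled points below 0 and Zfpm1 the one above it on the left, and Klf6 is the only filled point on the right.

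Genes known as targets or companions of the 9 factors were counted in 7 lists that share members, Fabp1 and Cpt1a among them. Beside the counts of these lists and of the marker lists below stand the shares over all genes, 2.50% called higher and 2.39% called lower. Of 16 lipid handling genes known as HNF4 targets 8 rose and none fell, with a median difference of 0.70 (0.91 in replicates 1 and 2, 0.48 in replicates 3 to 5). The fatty acid binding protein genes Fabp1 and Fabp2 rose by 2.47 and 1.17, Mttp, which loads lipid onto apolipoprotein B, by 1.04, and Cpt1a, which admits fatty acids to mitochondria, by 1.02. Fabp1 had log2 signals of 10.93, 10.21, 8.74, 8.47 and 8.12 with pegtarazimod, against 7.88, 6.60, 6.28, 6.97 and 6.38 with vehicle. As for Creb3l3, pegtarazimod 1 and 2 were the highest of all arrays, and the groups were apart. Its adjusted p was 0.00881, and 0.0513 when the priors were made robust and allowed to follow intensity.

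Of 22 brush border and digestive genes known as HNF4 and CDX2 targets 6 rose and none fell, with a median of 0.37 (0.51 in replicates 1 and 2, 0.21 in replicates 3 to 5). The peptide transporter gene Slc15a1 rose by 1.27, the aminopeptidase gene Enpep by 1.22, the intermicrovillar protocadherin gene Cdhr2 by 0.75 and the cadherin gene Cdh17, a CDX2 target, by 0.41. The Enpep difference was 1.77 in replicates 1 and 2 (adjusted p = 0.00283) but 0.86 in replicates 3 to 5 (0.0687), and that of Cdh17 did not pass in replicates 1 and 2 (0.33, 0.199). The adjusted p of Cdh17 reached 0.0791 and exceeded 0.05 without pegtarazimod 1, pegtarazimod 2, vehicle 3 or vehicle 4.

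Regional genes tied to GATA4 were counted separately for jejunum and ileum. Of 8 jejunal genes 2 rose, Fabp1 and the apolipoprotein gene Apob (0.66, adjusted p = 0.0460), with a median of 0.69 (1.07 in replicates 1 and 2, 0.42 in replicates 3 to 5). The Apob difference was 1.10 in replicates 1 and 2 but 0.36 in replicates 3 to 5. Without pegtarazimod 1 or 2 or any 1 of the vehicle arrays Apob no longer passed, at an adjusted p of up to 0.120. Of 8 ileal genes none passed by limma, and the median was 0.09 (0.20 in replicates 1 and 2, 0.06 in replicates 3 to 5). By a linear model without moderation no gene of either list passed. An unadjusted limma p below 0.05 was found for 5 jejunal and 4 ileal genes, 1 of the ileal ones being lower. The ileal genes Nr1h4 (1.10, adjusted p = 0.0514) and Slc51b (0.59, 0.0636), named after their values were seen, did not pass. In their mean, 5 of the 8 ileal genes lay below the array median, against 1 of the 8 jejunal genes, so these medians come from lists of unlike signal. With the subsets as a block, 3 ileal and 6 jejunal genes were called. Of 15 genes known as CREB3L3 targets 4 rose and none fell, with a median of 0.34 (0.39 in replicates 1 and 2, 0.22 in replicates 3 to 5). They were Cpt1a, Fabp1, the nuclear receptor gene Ppara (1.15 ± 0.21, adjusted p = 0.00709) and the glucose-6-phosphatase gene G6pc (1.09 ± 0.26, adjusted p = 0.0269). The G6pc difference was 1.72 in replicates 1 and 2 but 0.67 in replicates 3 to 5. Its adjusted p reached 0.0758, exceeding 0.05 without pegtarazimod 2, vehicle 2, vehicle 3 or vehicle 4.

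Crypt proliferation genes are known from the cells where KLF5 acts. Of 12 measured, 5 fell and 1 rose, with a median of -0.56 (-0.70 in replicates 1 and 2, -0.46 in replicates 3 to 5). The topoisomerase gene Top2a fell by 0.50 and the replicative helicase genes Mcm4, Mcm3 and Mcm2 by 0.83, 0.74 and 0.74. The member that rose was the growth factor gene Pdgfa (0.51 ± 0.13), a KLF5 target in other tissues, named after its value was seen. Within replicates 3 to 5 the Mcm2 difference was -0.52 and did not pass (adjusted p = 0.0769), and that of Top2a passed in neither subset (0.0578 and 0.0718). The adjusted p of Mcm2 reached 0.0872, exceeding 0.05 without pegtarazimod 2 or vehicle 2, 3, 4 or 5, that of Mcm3 0.0521, exceeding it without pegtarazimod 2 or vehicle 3, and that of Mcm4 was 0.0530 without vehicle 3.

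Goblet cell and cycle exit genes are known from the cells where KLF4 acts. Of 11 measured, 6 rose and none fell, with a median of 0.72 (0.65 in replicates 1 and 2, 0.56 in replicates 3 to 5). The mucin gene Muc2 rose by 1.37, the lectin gene Zg16 by 2.15, Clca1 by 0.98 and the mucus protein gene Fcgbp by 0.67. The Clca1 difference was 0.86 in replicates 1 and 2, where it did not pass (adjusted p = 0.0779). The cyclin-dependent kinase inhibitor genes Cdkn1a and Cdkn1c, named after their values were seen, differed by -0.06 and 0.05 and did not pass.

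**Figure D5:**
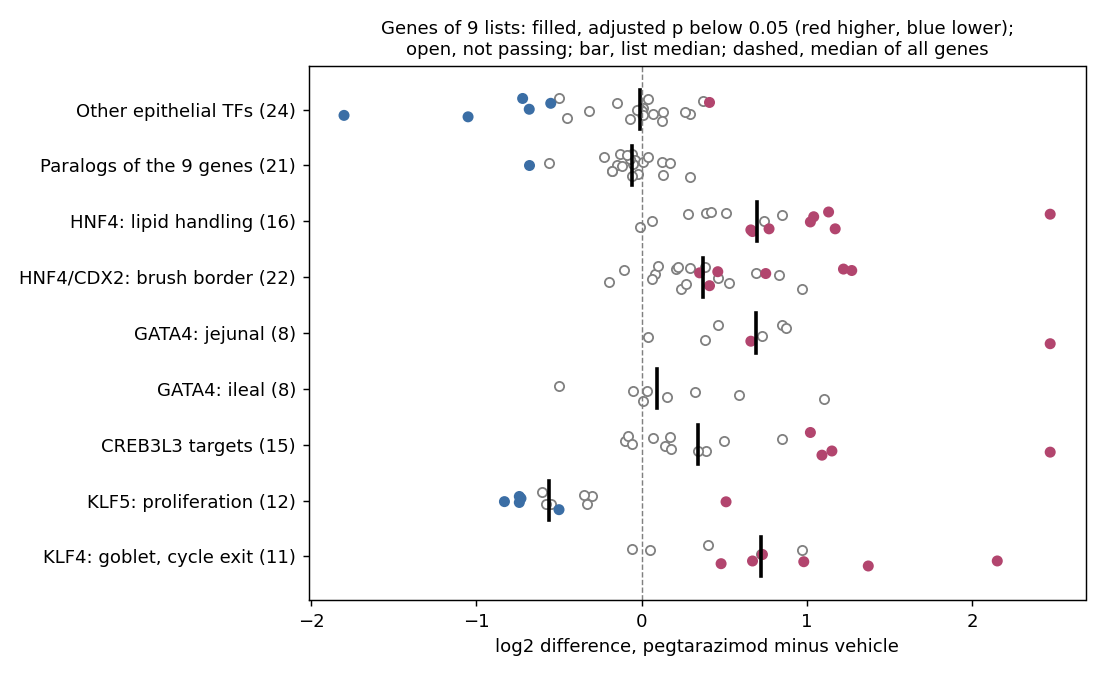
Log2 difference, pegtarazimod minus vehicle (horizontal axis), of each measured gene in 9 lists, with the number measured in parentheses; filled points have an adjusted p below 0.05 and bars are list medians. The medians of the lipid handling, jejunal and goblet lists lie near 0.7, that of the proliferation list at -0.56, and those of the transcription factor lists at -0.01 and -0.06.

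Marker genes of cell types were read as well. All measured enterocyte and goblet cell markers are also genes of the target lists above. The stem cell marker Ascl2 is among the transcription factors above. These markers are thus not separate evidence. The summed signal (log2) of 8 enterocyte markers, of which 3 rose, was 13.25 to 14.19 with pegtarazimod and 12.81 to 13.26 with vehicle. That of 6 stem cell markers, of which 4 fell, was 11.32 to 12.33 with pegtarazimod and 12.75 to 12.92 with vehicle, and that of 7 goblet cell markers, of which 6 rose, was 11.71 to 12.05 and 10.84 to 11.40. The part of these markers in the results on the 9 genes was not tested. The 6 general epithelial markers summed to 13.39 to 13.59 with pegtarazimod and 13.38 to 13.55 with vehicle, all of them above the upper quartile in their mean. Of these 6 markers 1 rose and none fell, and 3 had an unadjusted limma p below 0.05, 1 of them being lower. Stomach markers, 7 in all, lay below the array median in their mean, as did 5 of 6 colon markers, 5 of 5 endothelial and 6 of 7 leukocyte markers. None of these 4 lists had a call by limma or without moderation, at 2, 0, 1 and 1 unadjusted p below 0.05. Of 7 Paneth cell markers 1 rose and 3 fell, of 6 enteroendocrine markers 2 rose and 1 fell, and of 6 tuft cell markers none passed by either fit (2 unadjusted p below 0.05). Of 7 fibroblast markers 1 rose, at summed signals of 8.14 to 8.41 with pegtarazimod and 7.97 to 8.29 with vehicle.

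The genes outside the set whose profile over the 10 arrays was most like that of Klf5, by root mean square difference after each gene was centred on its mean, were Pde3a (0.0693 log2 units), Tmem30b (0.0830) and Cpox (0.0858). Pde3a, which encodes a phosphodiesterase, rose by 0.52 (adjusted p = 0.0145), while Tmem30b and Cpox differed by 0.34 each and did not pass (adjusted p = 0.118 and 0.117). The choice of these genes followed from their likeness to Klf5, so their differences add no independent evidence.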

How the data were processed

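RNA from 10 organoid cultures, 5 with pegtarazimod and 5 with vehicle, all with TNF, was measured on single-colour arrays. Groups and replicate numbers came from the labels. Per the submitters' processing notes, the authors ran RMA in oligo, and what they deposited is a log2 value for each probe set. RMA corrects background and makes array distributions alike, so a change shared by most genes would not be visible. No source used here gives the versions or the build. Of 22203 probe sets, 19572 had 1 gene symbol in the platform annotation and 2631 had none and were left out. Where a gene had several (55 of 19505 genes), the probe set with the highest mean was used. No detection calls were used. Precision is limited by the number of arrays.

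Differences (pegtarazimod minus vehicle) were estimated by limma (version 3.58.1, R 4.3.3), without covariates, and adjusted over 19505 genes. Paralog pairs were tested by exact permutation. The tests were checked on simulated data. The 9 genes, the lists and the split of the replicates were chosen with earlier results of these data known. Because of the choice of genes, p-values of genes are adjusted over all genes. That adjustment does not correct for the choice of the split. The p-values within the subsets or with the subsets as a block are therefore descriptive. The p-values of the paralog pairs are adjusted over the 4 pairs, which were chosen from the 9 genes with those results known and are not independent evidence. The rule for naming genes took all 9 genes, up to 4 called genes with the smallest p per target list, all called genes of the 2 transcription factor lists, and the 3 genes most like each called member. Klf10, Foxa3, Nr1h4, Slc51b, Pdgfa, Cdkn1a and Cdkn1c were named outside it, after their values were seen. Some genes of the lists are not reported here. Alternatives were other scalings, filters on dim genes, priors, array weights, blocks, subsets, probe set averaging, all probe sets, no moderation, and leaving out each array. Figures used Python 3.11.15 and matplotlib 3.10.9.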

Additional observations from a re-analysis of the deposited data

Results flagged for a closer look

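In 6 of 76 groups of 5 arrays, 1 array lay far from the other 4, with a gap above 0.71 of the group's range. Chance alone singles out about 1 in 20 such groups. Among the 9 transcription factor genes this held for Gata4, where vehicle 1 had 10.34 and the other vehicle arrays 9.92 to 10.03. Among target genes, pegtarazimod 5 had 8.39 for Cpt1a, against 8.77 to 8.90 on the other pegtarazimod arrays, pegtarazimod 2 had 9.71 for Muc2, against 10.33 to 10.43, and pegtarazimod 1 had 11.75 for Cdh17, against 11.54 to 11.59. Vehicle 1 had 8.64 for Fabp2, against 8.20 to 8.33 on the other vehicle arrays, and vehicle 4 had 5.81 for Clca1, against 5.26 to 5.41.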

How the results depend on the processing

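No member changed direction under any of 23 alternatives, and 188 of the 207 values for members kept their side of the threshold, as did 520 of 598 for the 26 other named genes, none of which reversed. The count of called members was 1 over the 10 arrays. It was 2 (Klf5 and Hnf4g) without the dimmest 50% of genes, where fewer genes are adjusted for. Under that filter 1296 genes were called in all, against 954 with every gene kept. The count of called members was 2 within replicates 1 and 2, 2 within replicates 3 to 5, and 3 with the subsets as a block. It was 0 without variance moderation, where Klf5 had an adjusted p of 0.106, and 0 to 3 on leaving out single arrays. Labels give both groups the same replicate numbers. Same-numbered arrays narrowly missed the mark for pairing, with correlations of their deviations of 0.099 to 0.310, 4 of 5 above 0.1. Number 3 was the one below it, at 0.099. By these deviations the vehicle array most like pegtarazimod 1, 2, 3 and 4 was the same-numbered one, and for pegtarazimod 5 it was vehicle 3. Between same-numbered arrays Hnf4g was 0.47 to 0.85 higher with pegtarazimod (SD 0.14), and Creb3l3 0.36 to 2.05 higher (SD 0.72). With a replicate block, 3 members were called (adjusted p of 0.00105 for Hnf4g, 0.0130 for Klf5 and 0.00775 for Creb3l3), against 8.23% of all genes. The count over all genes was 954, and 1606 with the replicate block, 1820 with the subsets as a block, 339 without moderation and 437 to 1245 on leaving out single arrays. It was 552 without pegtarazimod 1, 522 without pegtarazimod 2, 437 without vehicle 3, 498 without vehicle 4 and 562 without vehicle 5. Of the 128 list genes 35 were called, 57 with either block, 12 without moderation and 20 to 40 on leaving out single arrays. Of the paralog pairs 1 was called, 2 with permutation inside the subsets and 0 to 2 on leaving out single arrays. The change of Cdx1 minus Cdx2 ranged from -0.06 to 0.11 and that of Gata4 minus Gata6 from -0.06 to 0.05 on leaving out single arrays, so neither has a direction. The cause of these shifts was not tested. Depth is not defined for arrays, and Klf4, the dimmest member, lay above the array medians.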
